A study of Mus musculus with 6 samples.

Results

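The genes described here are 10 transcription factors that divide the embryonic neural tube from dorsal to ventral, namely Pax3, Pax7, Dbx1, Dbx2, Nkx2-2, Nkx6-1, Nkx6-2, Gsx2, Dlx1 and Dlx2. They were chosen by name, and their 16 probes were found by the current symbol or an older synonym on an Illumina bead array of 45281 probes, on which 19974 genes have a current symbol. The arrays measured total RNA of oligodendrocyte precursor cells (OPC), the dividing glia from which myelin-forming oligodendrocytes arise. They came from primary cultures of C57BL/6 mouse pups of 6 to 8 days, taken from cerebrum (3 cultures) or spinal cord (3 cultures). Both groups had been cultured for 7 days with PDGF-AA at 10 ng/ml, the growth factor that keeps OPC dividing, so the values describe cells after a week outside the tissue. Each preparation pooled 3 to 4 pups and gave 1 culture of each tissue, which share a replicate number. No genotype or further treatment is given in the labels.

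In the neural tube, gradients of Sonic hedgehog from the ventral side and of BMP and Wnt proteins from the dorsal side switch homeobox and Pax genes on or off, and pairs of these factors repress each other until each band of progenitors holds its own set. In the spinal cord most OPC arise from the ventral band that gives motor neurons earlier, and a smaller share from dorsal bands. In the forebrain OPC arise in turn from the ventral ganglionic eminences and from the cortex. The comparison of the tissues asks which of these early factors are still read in OPC of cerebrum and of spinal cord after birth.

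Of the 10 factors, Nkx2-2 was read well above background in OPC of both tissues, 1 probe of Dbx2 and the probe of Nkx6-1 were above the floor on every spinal cord array and on no cerebrum array, and the other 7 were at background in both tissues. A probe of Nkx6-2 and a second probe of Dbx2 crossed the floor on 1 array of each tissue. In spinal cord OPC Dbx2 (by that probe) was at least 1.51-fold and Nkx6-1 at least 1.23-fold higher. Nkx2-2 did not pass the test, with a log2 fold change of -0.22 ± 0.10 (SE, n = 3 cultures each). Background was taken from the 1302 probes of olfactory receptor (Olfr) genes, which are not expected in OPC. Their median intensity was 52.3 to 53.0 per array, and their 95th percentile, 67.2 to 68.6, served as the floor. A gene was tested where a probe exceeded the floor of its array on at least 3 of the 6 arrays.

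The promoters of the 3 factors above the floor are shown because these genes carry the results, and a pair of them differed between the tissues in the same direction. The sequences are those of RefSeq for GRCm38.p6, 250 bases before to 50 after the gene's start, 5′ to 3′ on the gene's strand. Capitals mark matches to any of 5 motifs.
Nkx2-2, chr2:147186353-147186652, minus strand: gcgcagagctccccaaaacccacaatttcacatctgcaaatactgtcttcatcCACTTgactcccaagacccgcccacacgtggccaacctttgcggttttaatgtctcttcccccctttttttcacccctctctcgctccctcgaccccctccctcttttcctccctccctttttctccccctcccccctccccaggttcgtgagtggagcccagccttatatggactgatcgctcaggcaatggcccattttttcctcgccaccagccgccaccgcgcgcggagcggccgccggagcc
Dbx2, chr15:95654722-95655021, minus strand: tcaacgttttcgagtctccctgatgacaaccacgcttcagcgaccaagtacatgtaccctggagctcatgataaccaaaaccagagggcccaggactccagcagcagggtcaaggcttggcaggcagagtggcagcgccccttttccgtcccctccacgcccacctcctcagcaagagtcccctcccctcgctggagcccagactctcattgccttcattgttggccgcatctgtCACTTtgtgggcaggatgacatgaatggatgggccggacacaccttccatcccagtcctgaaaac
Nkx6-1, chr5:101664662-101664961, minus strand: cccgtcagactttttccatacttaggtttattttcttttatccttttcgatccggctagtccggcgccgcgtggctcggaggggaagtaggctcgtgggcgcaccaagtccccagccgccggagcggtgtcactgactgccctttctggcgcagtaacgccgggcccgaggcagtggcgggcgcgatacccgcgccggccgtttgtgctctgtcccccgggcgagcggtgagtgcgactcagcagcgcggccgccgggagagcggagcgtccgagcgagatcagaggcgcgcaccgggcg

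The motifs were searched on both strands in the 9 factors with a promoter window in the table. They were the TATA box TATAAA, the CCAAT box CCAAT, the homeodomain palindrome TAATTA, the GLI site GACCACCCA of Sonic hedgehog signalling, and AAGTG, the core bound by Nkx2-2 and its relatives. No 2 matches overlapped in the windows shown. AAGTG occurred once in the window of Nkx2-2 and once in that of Dbx2, and the windows of Gsx2, Dlx1 and Dlx2 held it too. Of 32851 windows of the same length 46.4% did. The window of Nkx6-1 held none of the 5 motifs. TAATTA (5.29% of all windows) and the GLI site (0.253%) were in none of the 9. The TATA box (13.6% of all windows) was found in the windows of Dbx1 and Gsx2, and the CCAAT box (37.4%) in those of Dbx1, Nkx6-2 and Dlx2. The windows also differed in CpG dinucleotides, with 40 in Nkx6-1, 17 in Nkx2-2 and 10 in Dbx2, against a median of 7 over all windows. A match is a description of the letters and is not a binding site.

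On each array 44.9% to 46.6% of probes lay above the floor. Over tested probes the median standard deviation among cultures was 0.13 (log2) for cerebrum and 0.10 for spinal cord, and 6 arrays limit the precision. Cerebrum replicate 3 lay farthest from the other cultures on the second principal component (-25.2, the others between -8.4 and 18.2). All 8 OPC markers were above the floor on every array. The PDGF-AA receptor gene Pdgfra differed by -0.20 ± 0.10 (log2 fold change, SE) between spinal cord and cerebrum, Sox10 0.11 ± 0.11, Cspg4 0.01 ± 0.11 and Olig2 -0.03 ± 0.09, and none of these passed (adjusted p of 0.586, 0.898, 0.994 and 0.986, limma). Gpr17, which marks committed precursors, was the marker that did, and it was lower in spinal cord OPC (-1.37 ± 0.23, adjusted p = 0.00495). Blocked by preparation, Ptprz1 was called as lower too (0.00777). In bulk RNA, fewer cells of a type and less RNA per cell cannot be told apart.

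Among the ventral factors, Nkx2-2 is a homeodomain repressor of the most ventral neural progenitors. In the oligodendrocyte lineage it is known from mouse mutants for its part in the step to differentiation. It has a probe for each of 2 annotated transcript variants. The probe of transcript variant 1 read 3976.5, 3388.6 and 3396.9 in cerebrum replicates 1, 2 and 3, and 3090.1, 3138.6 and 3006.1 in spinal cord replicates 1, 2 and 3 (linear intensity). All 3 cerebrum cultures lay above all 3 spinal cord cultures, by a small margin next to the level. The mean log2 intensity was 11.80 ± 0.13 for cerebrum and 11.59 ± 0.03 for spinal cord cultures (SD, n = 3 of each).

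The difference for that probe was 1.16-fold towards cerebrum, with a 95% interval of the log2 fold change from -0.44 to 0.01 and an adjusted p of 0.537 (limma). This interval, from the fit without a block, includes no change as well as a cerebrum level 1.36-fold above that of spinal cord. Within the preparations the log2 difference was -0.36, -0.11 and -0.18. A limma fit blocked by preparation gave a 95% interval of -0.39 to -0.04, which leaves out no change. Its p was 0.0172 unadjusted and 0.179 adjusted over all tested probes, so the probe was not called there either. The probe of transcript variant 2 read 203.7, 245.9 and 265.2 in cerebrum and 207.6, 197.1 and 210.5 in spinal cord OPC. Here the tissues overlapped through cerebrum replicate 1, which lay below spinal cord replicates 1 and 3. It differed by -0.21 ± 0.12 (log2 fold change, SE, adjusted p = 0.678), close to that of the other probe. The replicate that read highest in cerebrum differed between the probes, replicate 1 for variant 1 and replicate 3 for variant 2. Both Nkx2-2 probes exceeded all 1302 Olfr probes on every array.

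Nkx6-1, a homeodomain repressor needed for ventral progenitors and motor neurons of the spinal cord, was read above background in spinal cord OPC only. Its single probe had intensities of 87.6, 78.5 and 84.8 in spinal cord replicates 1, 2 and 3 and of 56.4, 48.6 and 55.4 in cerebrum replicates 1, 2 and 3. All spinal cord cultures were above the floor and all cerebrum cultures below it, so the tissues did not overlap. On the spinal cord arrays 99.2% to 99.5% of Olfr probes were dimmer, and on the cerebrum arrays 23.6% to 74.1%, which is the middle of the background. The mean log2 intensity was 5.74 ± 0.12 for cerebrum and 6.38 ± 0.08 for spinal cord cultures (SD, n = 3 of each).

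The fitted log2 fold change of Nkx6-1 was 0.65 ± 0.09 (SE, 95% interval 0.45 to 0.84, adjusted p = 0.00107, limma). Because the cerebrum cultures lay at background, the bound of at least 1.23-fold, set against the floor, is the size that can be given. Spinal cord read higher in all 3 preparations. When the median Olfr intensity of each array was subtracted and values under 16 were set to 16, the log2 fold change was 0.95 (adjusted p = 0.0276), a size that the value 16 sets in the cerebrum cultures.

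Nkx6-2 is the close relative of Nkx6-1 and is known in the mouse for its place in myelinating oligodendrocytes. Its brighter probe read 61.9, 69.9 and 64.2 in cerebrum and 69.6, 62.2 and 66.3 in spinal cord OPC. It crossed the floor in cerebrum replicate 2 and in spinal cord replicate 1 and on no other array, which left it untested by the filter. The tissues overlapped, with a log2 fold change of 0.02 (95% interval -0.17 to 0.20, fit without the filter). The dimmer probe stayed below the floor on every array, between 53.5 and 63.7.

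Dbx2 marks intermediate progenitors of the spinal cord, where it is paired with ventral repressors that include Nkx6-1. It has 3 probes, of which 1 carries the current symbol on the array and the other 2 its older clone name. The probe with the current symbol read 98.8, 105.6 and 103.3 in spinal cord replicates 1, 2 and 3 and 53.8, 62.6 and 47.8 in cerebrum replicates 1, 2 and 3. Every spinal cord culture lay above the floor and every cerebrum culture below it. In spinal cord 99.8% to 99.9% of Olfr probes were dimmer, against 18.0% to 89.2% in cerebrum. The mean log2 intensity was 5.77 ± 0.19 for cerebrum and 6.68 ± 0.05 for spinal cord cultures (SD, n = 3 of each).

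The fitted log2 fold change of this Dbx2 probe was 0.91 ± 0.10 (SE, 95% interval 0.69 to 1.14, adjusted p = 0.000199, limma), and the bound against the floor was at least 1.51-fold. Spinal cord read higher in all 3 preparations, and the cerebrum values, at background, give the pair differences no exact size. With the Olfr median subtracted and values under 16 set to 16 the log2 fold change was 1.64 (adjusted p = 0.000592), again a size that depends on the value 16. The probes with the clone name did not show this difference. The brighter of them, designed on a predicted transcript variant, read 68.5, 67.7 and 63.0 in cerebrum and 69.4, 63.2 and 63.0 in spinal cord OPC, above the floor in replicate 1 of each tissue and below it on the other 4 arrays. The dimmer read 43.6, 45.7 and 45.7 in cerebrum and 51.8, 40.4 and 51.1 in spinal cord OPC. The result for Dbx2 therefore rests on 1 of its 3 probes.

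Dbx1, a relative of Dbx2 in intermediate progenitors, was not above background on any array. Its brighter probe read 54.4, 54.7 and 54.1 in cerebrum and 50.1, 58.7 and 58.4 in spinal cord OPC, and its other probe lay between 46.0 and 49.9. Values this low cannot show a difference between the tissues.

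**Figure D1:**
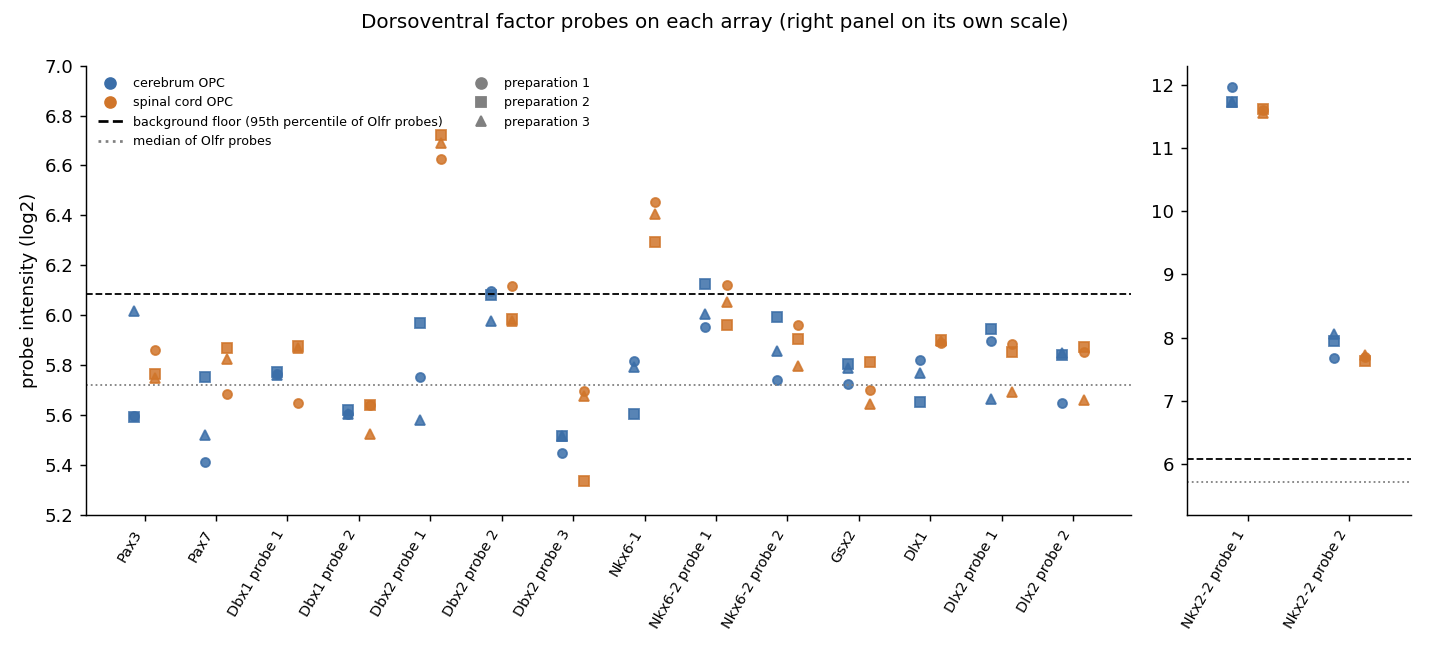
Log2 probe intensity of the 10 factors on each of the 6 arrays, with cerebrum OPC in blue, spinal cord OPC in orange and the marker shape giving the preparation. The dashed line is the mean over arrays of the Olfr floor and the dotted line that of the Olfr median. Both Nkx2-2 probes (right panel, own scale) lie far above the floor in both tissues, Dbx2 probe 1 and Nkx6-1 lie above it in spinal cord only, and the remaining probes lie below it, except for single arrays of Dbx2 probe 2 and Nkx6-2 probe 1 at or just above it.

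The dorsal factors Pax3 and Pax7, paired-box genes of dorsal progenitors and of neural crest, were below the floor on all 6 arrays. Pax3 read 48.3, 48.3 and 64.8 in cerebrum and 58.0, 54.4 and 53.7 in spinal cord OPC. The highest of these came from cerebrum replicate 3, and the tissues overlapped (log2 fold change 0.05, 95% interval -0.16 to 0.27, fit without the filter). Pax7 read 42.5, 53.9 and 45.9 in cerebrum and 51.4, 58.4 and 56.7 in spinal cord OPC. Spinal cord read higher in all 3 preparations, while all values stayed within the range of the Olfr probes. The fit without the filter gave an unadjusted p of 0.0232 and an adjusted p of 0.532 (limma) for Pax7.

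Gsx2, Dlx1 and Dlx2 are homeobox genes of the ventral forebrain, where Gsx2 specifies progenitors of the lateral ganglionic eminence and the Dlx genes drive the fate of GABAergic neurons. None was above the floor on any array, in cerebrum OPC or in spinal cord OPC. Gsx2 read 52.9, 55.9 and 55.3 in cerebrum and 52.0, 56.2 and 49.9 in spinal cord OPC, with overlapping tissues. Dlx1 read 56.5, 50.3 and 54.4 in cerebrum and 59.2, 59.7 and 59.6 in spinal cord OPC. These groups did not overlap, and the log2 fold change was 0.15 (95% interval -0.02 to 0.32, adjusted p = 0.776, fit without the filter), at intensities above 34.7% to 84.6% of Olfr probes. The 2 probes of Dlx2 lay between 50.1 and 61.6 in both tissues.

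Taken over the 12 untested probes of the 10 factors, 1 (Dlx1) had groups that did not overlap, against 10.4% of the 24293 probes below the filter. Their log2 fold changes lay between -0.06 and 0.23, and their lowest adjusted p in the fit without the filter was 0.532 (0.254 when blocked by preparation). With intensities of 40.4 to 69.9 these probes do not show that a factor is absent, only that it was not read above background on these arrays.

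Of the 10 factors 3 passed the filter, and 2 of these, Dbx2 and Nkx6-1, were called at an adjusted p under 0.05, both higher in spinal cord OPC. Among all 11226 tested genes 2.95% were called, and 1.87% were called as higher in spinal cord. Both called factors had passed the filter only through their spinal cord arrays, so they had to read higher there, and the share among the 3 carries no weight. Without a filter on dim probes the same 2 of 10 factors were called (adjusted p of 3.06e-05 for Dbx2 and 0.000449 for Nkx6-1), against 1.66% of 19974 genes. Both were called in every fit that left out 1 array, with adjusted p up to 0.00269 for Dbx2 and up to 0.0109 for Nkx6-1. Those fits kept the probes that had passed the filter with all 6 arrays. Without any spinal cord array neither factor would have met the filter of at least 3 arrays, so those fits do not test the filter. The number of called genes over all tested genes moved more. It was 331 in the fit reported, 711 when blocked by preparation, 202 or 574 when cerebrum replicate 2 or 3 was left out, and 216 or 196 when spinal cord replicate 1 or 2 was left out.

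**Figure D2:**
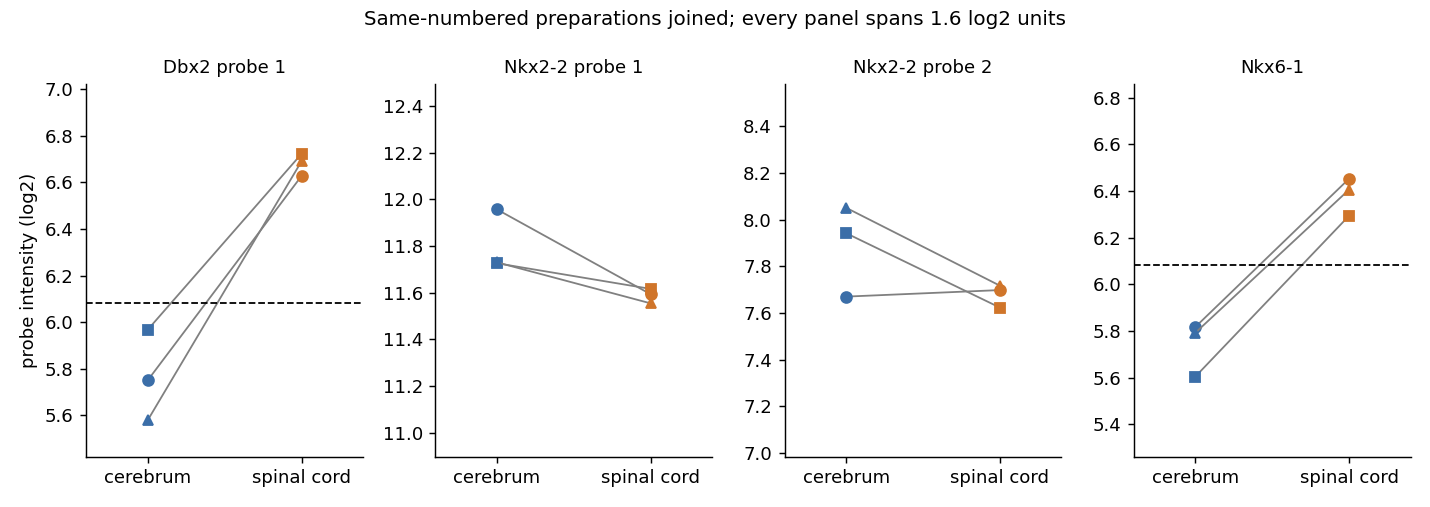
Log2 intensity of the 4 probes that passed the filter, with the cerebrum and spinal cord cultures of a preparation joined by a line and the marker shape giving the preparation. Each panel spans the same log2 range, and the dashed line is the mean floor where it falls inside the panel. Dbx2 probe 1 and Nkx6-1 rise from below to above the floor in all 3 preparations, and Nkx2-2 is lower in spinal cord in all 3 for probe 1 and in 2 of 3 for probe 2.

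**Figure D3:**
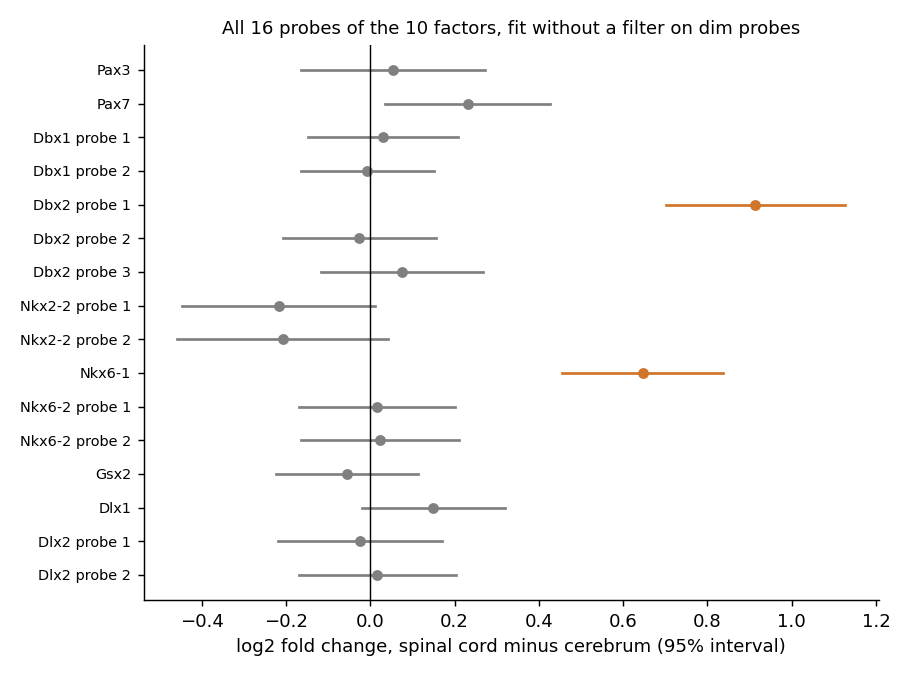
Log2 fold change, spinal cord minus cerebrum, of all 16 probes with 95% intervals from the limma fit without a filter on dim probes. Orange marks an adjusted p under 0.05, which Dbx2 probe 1 (0.91) and Nkx6-1 (0.65) reached, and grey the 14 probes that did not.

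By Euclidean distance over the 6 log2 values, each gene centred on its own mean, the tested genes nearest to Dbx2 were the metalloproteinase gene Mmp2 (distance 0.17), the Krüppel-like factor gene Klf9 (0.19) and the heparan sulfate sulfotransferase gene Hs3st3b1 (0.21). Their log2 fold changes were 0.84 ± 0.13, 0.97 ± 0.12 and 0.93 ± 0.12 (SE). Nearest to Nkx6-1 were Wls, which encodes a carrier of Wnt proteins (0.08), the teneurin gene Tenm4 (0.16) and the ribosomal protein gene Rps4l (0.18). Their log2 fold changes were 0.62 ± 0.12, 0.64 ± 0.10 and 0.62 ± 0.13 (SE). The likeness is that of 6 arrays from 3 preparations, and the cerebrum readings of Dbx2 and Nkx6-1 in it lay below the floor. Wls lost its call when any of cerebrum replicate 2, spinal cord replicate 1 and spinal cord replicate 3 was left out (adjusted p up to 0.0825), and Rps4l when cerebrum replicate 2 or any single spinal cord array was (up to 0.169). Rps4l also lost it with the Olfr median subtracted (0.0518).

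The wider set of dorsoventral patterning factors held 39 further genes, of which 37 are on the array and 14 passed the filter. Of these 14, 2 were higher in spinal cord OPC, 0 were lower and 12 did not pass, with a median log2 fold change of -0.02 against 0.00 over all tested genes. Irx3, an Iroquois homeobox gene of intermediate and dorsal progenitors, read 313.8, 227.4 and 164.3 in cerebrum and 1004.9, 1186.6 and 1138.5 in spinal cord OPC. It rose by 2.29 ± 0.19 on the log2 scale (SE, adjusted p = 1.41e-05). Msx1, a homeobox gene of the roof plate and dorsal midline that responds to BMP, read 91.9, 98.7 and 116.5 in cerebrum and 280.7, 234.0 and 270.1 in spinal cord OPC. Msx1 rose by 1.36 ± 0.12 (log2, SE, adjusted p = 2.57e-05), while its other probe was below the filter. Neither gene overlapped between the tissues, and both were above the floor on all 6 arrays.

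Among the genes that did not pass, the dorsal zinc finger gene Zic1 differed by 0.08 ± 0.14 (log2 fold change, SE, adjusted p = 0.968). Zic1 turned to -0.08 without cerebrum replicate 3. The largest such changes towards cerebrum were those of Gsx1, the relative of Gsx2, with -0.30 ± 0.15 (SE, adjusted p = 0.610), and of Nkx2-1, a ventral forebrain relative of Nkx2-2, with -0.28 ± 0.09 (0.249). Gsx1 was above the floor in every culture, reading 1564.0, 1475.7 and 1113.5 in cerebrum and 1343.9, 968.5 and 1063.4 in spinal cord OPC. Nkx2-1 was above it in 3 of 3 cerebrum cultures and 1 of 3 spinal cord cultures. The 23 that did not pass the filter include Pax6, Olig3, Foxa2, Dlx5, Dlx6, Emx1, Emx2 and Nkx2-9.

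Factors that name classes of spinal interneurons and motor neurons after these progenitor bands were mostly at background. Of 28 such genes 27 are on the array and 5 passed the filter, with 1 higher, 1 lower and 3 not called in spinal cord OPC (median log2 fold change -0.09). Lhx2, a LIM homeobox gene of dorsal spinal interneurons and of the cortex, read 106.4, 94.9 and 84.1 in cerebrum and 61.7, 51.7 and 59.8 in spinal cord OPC. In cerebrum OPC it was higher by at least 1.4-fold, and it lay below the floor in all spinal cord cultures (adjusted p = 0.00197, and 0.000637 in the fit without the filter). It had passed the filter only through its cerebrum arrays, so it had to read higher there. Pou4f1, a POU factor of sensory and dorsal neurons, read 79.5, 74.8 and 60.8 in cerebrum and 107.8, 98.2 and 91.9 in spinal cord OPC, a difference of 0.48 ± 0.11 (log2, SE, adjusted p = 0.0469). The call rests on 1 of its 3 probes, as the others were below the filter.

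Pou4f1 was called when cerebrum replicate 1 was left out (adjusted p = 0.0237), and when any other array was left out it was not, with adjusted p of 0.0616 to 0.213. In cerebrum replicate 3 it was below the floor, so the size of its change is approximate. En1, of ventral interneurons, had -0.41 ± 0.15 (SE, adjusted p = 0.292), which passed when blocked by preparation (0.0278) and when cerebrum replicate 3 was left out (0.00754). Lhx3, a LIM homeobox gene of motor neurons, had -0.09 ± 0.09 (adjusted p = 0.907). Lbx1, Isl1, Mnx1, Sim1, Gata2 and Lhx1 are among the 22 that did not pass the filter.

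**Figure D4:**
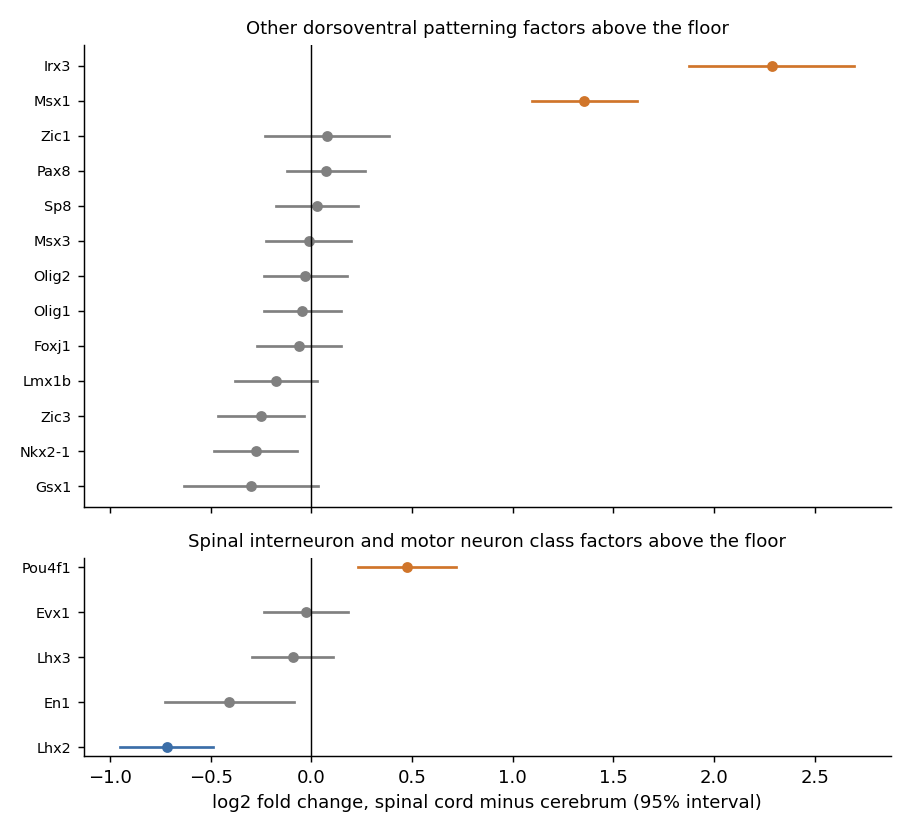
Log2 fold change, spinal cord minus cerebrum, with 95% intervals from the limma fit for tested genes of both lists of related factors. Orange marks genes called as higher in spinal cord OPC (Irx3, Msx1 and Pou4f1), blue the gene called as lower (Lhx2) and grey those that did not pass.

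Since Pax3, Pax7, the Dlx genes and the neuron class factors also mark other cells, markers of such cells were read beside them. Of 15 neuron and GABAergic interneuron markers on the array 6 passed the filter and 1, Npy, was called, as lower in spinal cord OPC (-0.82 ± 0.11, SE, adjusted p = 0.000937), with spinal cord replicate 2 below the floor. Blocked by preparation, Dcx was called as higher (adjusted p = 0.00201). Gad2, Slc32a1, Sst and Lhx6 are among the 9 that did not pass the filter. Gad1 passed it, and Dcx, Syt1, Elavl3 and Elavl4 lay above the floor in every culture, Elavl3 at 771.2 to 858.5. The summed intensity of this list was 2640 to 2938 in the cerebrum and 2829 to 3176 in the spinal cord cultures. Each sum, here and for the lists below, adds the brightest probe of every gene with its background. It is therefore not an amount of cells. Of 8 skeletal muscle precursor markers 2 passed the filter and 0 were called by limma, with sums of 443 to 469 and 455 to 462. The 2 that passed were Myog (60.6 to 78.2 over the cultures) and Des (64.6 to 79.8), both near the floor. Myf5 and Myod1 did not pass the filter.

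Of 11 Schwann cell and neural crest markers 5 passed the filter and 0 were called (1, as lower, when blocked by preparation). Their sums were 6758 to 7240 in cerebrum and 6438 to 6675 in spinal cord. Pmp22 (4056.8 to 5444.1) and Egr2 (344.6 to 694.3) were above the floor in every culture, and Foxd3 did not pass the filter. Of 9 astrocyte markers 6 passed the filter and 1, Sox9, was called, as lower in spinal cord OPC (-1.25 ± 0.18, SE, adjusted p = 0.00155), with sums of 23316 to 30966 and 21240 to 22992. The brightest were Sox9 (4802.8 to 16539.4 over the cultures), Slc1a3 (6598.5 to 8692.3) and Aldoc (5509.2 to 7718.8), while Gfap, Aldh1l1 and Gja1 did not pass the filter. Blocked by preparation, Aldoc was called as higher (adjusted p = 0.0126). Of 7 melanocyte markers 3 passed the filter and 1, Pmel, was called, as lower in spinal cord OPC (sums of 1655 to 1864 and 1524 to 1539). Kit, at 905.7 to 1118.0 over the cultures, and Dct passed the filter too, while Mitf and Tyr did not. Of 9 microglia markers 3 passed the filter and 0 were called (559 to 581 and 564 to 596). The part of other cells in the levels of Dbx2 and Nkx6-1 was not tested.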

How the data were processed

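Total RNA of 6 primary mouse OPC cultures was hybridised as biotinylated cRNA to Illumina bead arrays, as the labels' protocols state. The values are linear probe intensities of the deposited value table, whose upper quartile was 162.7 on every array. The submitters' processing notes name GenomeStudio 2011.1. The authors' normalisation method and any background removal are not stated in the labels or headers. The intensities of Olfr probes show that background remains, so folds of dim genes are understated. A further deposited table has 12 columns of per-sample values whose headings fit none of the sample labels. These stayed unused, and only its symbols and probe descriptions were read. Symbols were updated through RefSeq's gene table for GRCm38.p6 (16219 of 30869 current, 5718 through a synonym of a single gene, 8932 unmatched).

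Log2 intensities of the 20988 probes above the floor on at least 3 arrays were fitted with limma 3.58.1 in R 4.3.3 (lmFit, eBayes with an intensity trend), as spinal cord minus cerebrum. P-values were adjusted by Benjamini-Hochberg across these probes, with a threshold of 0.05. The script was tested on simulated data. The brightest tested probe stood for a gene in counts, and no probe's level was set against another's. A fold is given as a bound where all 3 arrays of a tissue lay below the floor. The bound sets the brighter tissue's mean log2 value against, per array, the higher of the floor and the probe's own value. Same-numbered cultures come from the same preparation, per the labels' design text, and their deviations from the tissue means correlated with 0.53, 0.21 and 0.50, against -0.45 to 0.03 for other pairs. The fit reported has no block, and blocked values are given where they change a call or a count. Alternatives were another filter, no filter, background subtraction, a second quantile normalisation, the mean of a gene's probes, no trend, the block and leaving out each array. Fits without 1 array kept the tested probes of the fit reported.

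Members and lists were chosen with earlier results of these data known. Named genes are all 10 factors with every probe, called genes of the 2 lists of related factors with the 2 largest changes in each direction among the rest, 4 OPC markers, and the 3 nearest genes for each called factor. Some genes that these rules and lists name are not reported here. Marker genes named for other cell types were chosen after their values were seen.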

Additional observations from a re-analysis of the deposited data

How the results depend on the processing

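The calls of Dbx2 and Nkx6-1 and the lack of a call for both Nkx2-2 probes held under every alternative run, and so did the 2 calls among the other dorsoventral factors (Irx3 and Msx1). The second quantile normalisation could move little, since the deposited arrays already had nearly equal quantiles, and the mean of a gene's tested probes is for Dbx2 and Nkx6-1 their single tested probe and gives no value for the second Nkx2-2 probe. Without 1 array, and with the tested probes kept, the log2 fold change of Dbx2 was 0.82 to 1.01. That of Nkx6-1 was 0.58 to 0.69 and that of Nkx2-2 -0.26 to -0.14. The number of called interneuron and motor neuron class factors was 2. It was 1 with the floor at the 99th percentile of Olfr probes and 1 with no intensity trend. The mean of a gene's tested probes also gave 1, and Pou4f1 was lost in all of these. Without 1 array the number was 1 to 2. Pou4f1 was then lost unless cerebrum replicate 1 was left out, and En1 was gained without cerebrum replicate 3. The number was 3 with the replicate block, with or without the filter, where En1 was gained. The number of called genes was 331 over all tested genes, 711 with the preparation as a replicate block, 626 with the block and no filter (chosen after seeing the data) and 196 to 574 without 1 array. The replicate block changed no call of the 10 factors. Signs of uncalled genes turned without 1 array for Zic1 (-0.077 to 0.183), Cspg4 (-0.019 to 0.064) and Olig2 (-0.054 to 0.003). The causes were not tested. Background in the intensities limits what can be said of the 7 factors below the filter, and of the size of the differences of Dbx2 and Nkx6-1.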
